A study of Homo sapiens with 16 samples.

Results

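The comparison described here is what all-trans retinoic acid (ATRA) changed in U-937 cells that were also given Corin. It sets the 2 libraries of U-937 treated with ATRA and Corin together against the 2 libraries treated with Corin alone, over all genes. These are 4 of the 16 libraries of a study that treated 2 acute myeloid leukaemia lines, SKNO-1 and U-937, with DMSO, ATRA, Corin or both agents. No DMSO library enters the comparison, so Corin at 0.1 µM for 24 h is shared by both groups, and ATRA at 0.1 µM is the labelled difference. U-937 is an established monocyte-like line, so the comparison describes a single line in culture. The labels number the replicates but do not say whether they came from separate cultures, so p-values measure the spread between these libraries, which may be technical.

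Retinoic acid binds nuclear receptors (RARA, RARB and RARG) that sit on DNA as partners of the RXR receptors. Without ligand the pair holds corepressor complexes with histone deacetylases, and with ligand these are exchanged for coactivators. Corin inhibits the CoREST complex, a corepressor that joins the demethylase LSD1 (KDM1A) to the deacetylases HDAC1 and HDAC2. Retinoic acid is best known in myeloid leukaemia for driving maturation, in which cells stop dividing and gain phagocyte receptors and the oxidase that makes superoxide. The question of the comparison is which genes ATRA changed in the presence of Corin.

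Estimated counts summed to 37.6 and 28.4 M in the Corin libraries and to 34.4 and 31.9 M in the libraries with both agents. Levels are given in CPM, counts scaled to 1 M after TMM normalization, and a gene is called when its adjusted p in edgeR's quasi-likelihood test (Benjamini-Hochberg over all genes tested) is under 0.05. U-937 was recognisable by CD33, CD4, SPI1, LYZ, CSF3R, HOXA9 and HOXA10, all above 15 CPM in each library, and RUNX1T1, part of the SKNO-1 fusion, had 0 or 1 count. Among markers of other blood cells, CD3D, CD3E, CD3G, CD8A, MS4A1, HBA1, HBB and PF4 had 0 counts in all 4 libraries, and others had counts. The summed level of 10 T and B cell markers was 11.8 to 12.4 CPM with Corin and 7.98 to 9.73 CPM with both agents. For 13 erythroid and megakaryocyte markers it was 1.21 to 1.90 and 1.56 to 1.86 CPM. Of the T and B cell markers 5 were tested, 1 called higher and 1 lower, with log2 fold changes from -3.66 to 1.79. Of the erythroid and megakaryocyte markers 2 were tested and 1 was called higher, with log2 fold changes from -0.44 to 2.31. The 10 stromal and epithelial markers summed to 167.7 to 174 and to 259.7 to 299.6 CPM, nearly all of it PECAM1, which monocytes also express. Non-coding transcripts moved with the groups: their share of all counts was 11.8% and 11.3% with Corin and 18.3% and 18.2% with both agents. The signal recognition particle RNA RN7SL1 alone went from 3.34% and 2.75% to 5.61% in each library. The part of this shift in the results was not tested beyond a fit on protein-coding genes alone, in which 8838 of 12577 genes were called. The table holds 0 spike-in entries, so every change is relative to the other RNA of the library, and less RNA per cell cannot be told apart from fewer cells expressing a gene.

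ATRA on top of Corin changed most of the measured transcriptome. The table lists 60603 genes, of which 17053 had enough counts to be tested, and 10563 of these were called (61.9%), 5057 higher (29.7%) and 5506 lower (32.3%). A change of at least 1 on the log2 scale was called for 2470 genes upward (14.5%) and 2738 downward (16.1%). The median log2 fold change over all genes was near 0 (-0.003), but this balance depends on the TMM scaling. With library totals only the median was -0.1 and 41.3% of calls were higher, against 47.9%. In 6663 genes (39.1%) both libraries with ATRA lay above both Corin libraries, and in 6860 (40.2%) both lay below. The first principal component held 95.9% of the variance and separated the groups, whereas replicates differed with an SD of 0.206 (both agents) and 0.196 (Corin) on the log2 scale over 9461 well-expressed genes. With 2 libraries a side and 2 residual degrees of freedom the test leans on a spread shared across genes. Very small p-values therefore order genes and say little about how exact a single gene is.

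**Figure D1:**
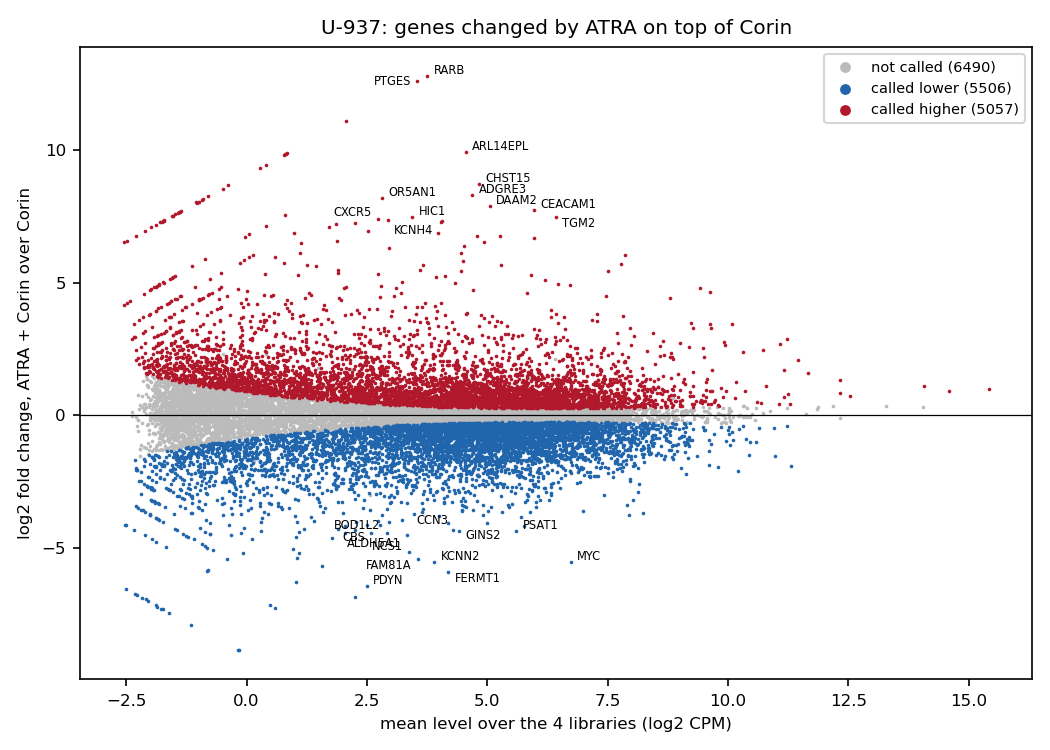
Log2 fold change of ATRA with Corin over Corin alone in U-937 (vertical axis) against the mean level over the 4 libraries (horizontal axis, log2 CPM), 1 point per gene tested, with the 24 named genes labelled. Called genes lie on both sides in similar numbers, 5057 higher and 5506 lower, and the largest changes are rises from near silence.

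A retinoic acid receptor was among the largest rises. RARB (ENSG00000077092.19, chromosome 3, 24687887 to 25597932, plus strand), which is itself a classic target of its ligand, had 0 and 0 counts with Corin and 812 and 903 counts with both agents. It was not detected in either Corin library and stood at 23.5 and 30.5 CPM in both others, at least 606-fold higher if the Corin group is set at 3 counts in all (adjusted p = 8.31e-190). RefSeq lists 4 windows at starts of RARB, and the 250 bases before 1 of these are shown because they hold a motif of retinoic acid receptors. Capitals mark 2 hexamers in direct repeat spaced by 5 bases (DR5).
RARB, chr3:25428013-25428262, plus strand: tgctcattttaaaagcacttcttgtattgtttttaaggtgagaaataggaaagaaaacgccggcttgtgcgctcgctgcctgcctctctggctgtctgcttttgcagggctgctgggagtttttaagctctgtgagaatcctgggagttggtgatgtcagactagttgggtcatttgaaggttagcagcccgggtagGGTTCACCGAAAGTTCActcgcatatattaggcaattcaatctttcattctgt

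The DR5 search used the consensus hexamer AGGTCA, its variant AGTTCA, the variant GGGTCA and lastly the variant GGTTCA on both strands, and the last pair was added after values had been seen. It found the repeat in 31 of 35116 promoter windows (0.0883%), each running from 250 bases before to 50 after a RefSeq start on GRCh38.p14. Only 7 genes with such a window were tested. RARB, BATF2, CFLAR and PRSS27 were called higher, the last 3 with log2 fold changes of 4.47, 1.25 and 1.12. ATXN1L (0.25), PANK2 (0.02) and PHF8 (-0.06) were not called. The repeats of RARB, BATF2, CFLAR and PRSS27 each include GGGTCA or GGTTCA, the pair added after values had been seen. Among the 7 genes only the repeat of PHF8 is made of the earlier hexamers alone. The repeat was in 0.0847% of windows of genes called higher, against 0.0883% of all windows and 0.0532% of windows of genes tested. For genes called higher by at least 1 on the log2 scale the share was 0.209% (4 of 1910 windows). It was in 0 of 5484 windows of genes called lower. So few windows hold the repeat that differences between these shares were not tested. The windows of CYP26A1, BATF2 and PRSS27 are printed to compare their elements with that of RARB, and in CYP26A1 the hexamers read on the other strand.
CYP26A1, chr10:93073773-93073849, plus strand: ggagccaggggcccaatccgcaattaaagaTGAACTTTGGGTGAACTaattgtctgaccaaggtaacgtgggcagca
BATF2, chr11:64990278-64990336, minus strand: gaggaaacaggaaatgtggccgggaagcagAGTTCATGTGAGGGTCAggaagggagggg
PRSS27, chr16:2720326-2720402, minus strand: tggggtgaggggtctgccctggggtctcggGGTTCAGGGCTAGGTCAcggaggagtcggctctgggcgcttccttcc
CYP26A1, the enzyme that clears retinoic acid and a common target gene in other cells, had 0 counts in all 4 U-937 libraries. A count of 0 allows a level of up to 0.0441 CPM over the Corin libraries and 0.0467 CPM over the others, for counting error only. A match is a description of letters and does not show binding.

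Most listed targets of retinoic acid rose. This list, like the others, was chosen with earlier results of these data known, so its counts describe it and test nothing. Of 20 listed genes 16 were tested, 15 were called higher, none lower, and the median log2 fold change was 2.67, against -0.003 over all genes. Setting RARB at its bound left that median as it was. TGM2 (ENSG00000198959.12, chromosome 20, 38127385 to 38166578, minus strand), a transglutaminase induced in maturing myeloid cells, was at 0.895 and 1.03 CPM with Corin and 177 and 165 CPM with both agents (log2 fold change 7.47, SE 0.18). The ectoenzyme CD38, which uses NAD, was at 15.4 and 14.3 CPM with Corin and 316 and 359 CPM with both agents (log2 fold change 4.505, SE 0.15, adjusted p = 1.66e-201). DHRS3, a reductase that turns retinal back to retinol, was at 7.76 and 5.77 CPM with Corin and 199 and 211 CPM with both agents (log2 fold change 4.91, SE 0.15, adjusted p = 5.93e-234). In each of these genes the 2 groups were far apart and the replicates close.

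Other members of the list rose from lower levels or by less. HIC1 (ENSG00000177374.13, chromosome 17, 2054154 to 2063241, plus strand), a transcriptional repressor, went from 0.105 and 0.133 to 22.6 and 20.6 CPM (log2 fold change 7.47, SE 0.29, adjusted p = 1.65e-145). DAAM2 (ENSG00000146122.17, chromosome 6, 39792298 to 39904877, plus strand), a formin of Wnt signalling, went from 0.263 and 0.30 to 66.6 and 65.9 CPM (log2 fold change 7.87, SE 0.22, adjusted p = 1.42e-283). Both were nearly undetected with Corin. PLAAT4, a phospholipase first described as a retinoid-induced gene, went from 1.11 and 1.1 to 16.9 and 20.04 CPM (log2 fold change 4.06, SE 0.21, adjusted p = 6.86e-81). CEBPE, a factor of late granulocyte maturation, went from 5.24 and 4.93 to 28.4 and 30.7 CPM (log2 fold change 2.53, SE 0.15, adjusted p = 3.64e-59). The groups did not overlap in any of these genes, but only 20.7% of all genes tested had groups that overlapped. PRAM1, an adaptor found as a retinoic acid target in leukaemia, was at 10.3 and 13.2 CPM with Corin and 47.2 and 30.6 CPM with both agents (log2 fold change 1.73, SE 0.14, adjusted p = 1.06e-33), and the replicates with both agents lay apart. Besides that of RARA, given below, the smallest rises were those of ASB2 (0.75), TNFSF10, the death ligand TRAIL (0.71), and DHRS9 (0.48). The call of DHRS9 was lost without combination replicate 2 (edgeR adjusted p = 0.0667). CRABP2, which carries retinoic acid to the nucleus, was low at 0.526 and 0.733 CPM with Corin and 0.665 and 0.2704 CPM with both agents, and was not called (log2 fold change -0.39, SE 0.50, adjusted p = 0.504). CYP26A1, CYP26B1, RARRES1 and NRIP1 had 0 counts in all 4 libraries and were not tested.

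Among the receptors, RARA rose slightly, from 10.4 and 12.1 to 17.6 and 16.4 CPM (log2 fold change 0.595, SE 0.15, adjusted p = 1.82e-04). RXRA, the partner receptor, was at 31.2 and 32.7 CPM with Corin and 25.6 and 19.9 CPM with both agents (log2 fold change -0.49, SE 0.13, adjusted p = 4.49e-04). Its call was lost without combination replicate 2 (edgeR adjusted p = 0.0695). RARG (-0.35) and RXRB (-0.03) were not called. Of 18 genes that make, carry or break down retinoids 10 were tested, 7 of them higher and 2 lower. The binding protein FABP5 went from 98.2 and 88.97 to 349.8 and 395 CPM (log2 fold change 1.99, SE 0.13, adjusted p = 3.10e-49), and the retinol dehydrogenase RDH11 from 119.8 and 105 to 229 and 262 CPM. RDH10, another retinol dehydrogenase, fell from 17.9 and 20.3 to 8.09 and 8.38 CPM (log2 fold change -1.21, SE 0.15, adjusted p = 2.60e-14).

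The 12 largest rises and 12 largest falls were taken among called genes that averaged 5 CPM or more, and a plot gives their level in each library. Besides RARB, DAAM2, HIC1 and TGM2, the rises included PTGES (ENSG00000148344.11, chromosome 9, 129738331 to 129753042, minus strand), the synthase of prostaglandin E2. It had 0 and 0 counts with Corin and 756 and 733 counts with both agents, at least 526-fold higher (adjusted p = 4.41e-170). CHST15 (ENSG00000182022.18, chromosome 10, 124007668 to 124093598, minus strand), a sulfotransferase of chondroitin sulfate, was at 0.132 and 0.133 CPM with Corin and 57.3 and 56.1 CPM with both agents (log2 fold change 8.702, SE 0.24, adjusted p = 2.09e-276). ADGRE3 (ENSG00000131355.14, chromosome 19, 14619117 to 14690027, minus strand), an adhesion receptor of myeloid cells, was at 0.184 and 0.133 CPM with Corin and 48.1 and 54.99 CPM with both agents (log2 fold change 8.28, SE 0.24, adjusted p = 1.51e-260). All 3 were near silent with Corin and at 21.9 CPM or more with ATRA added.

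CEACAM1 (ENSG00000079385.22, chromosome 19, 42507304 to 42561234, minus strand), a cell adhesion receptor, was at 0.658 and 0.50 CPM with Corin and 124 and 125 CPM with both agents (log2 fold change 7.72, SE 0.19), but it belongs to a family of similar genes and its value is uncertain. CXCR5 (ENSG00000160683.4, chromosome 11, 118883892 to 118897787, plus strand), the receptor of the chemokine CXCL13, was at 0.0789 and 0.0667 CPM with Corin and 12.4 and 13.9 CPM with both agents (log2 fold change 7.41, SE 0.35, adjusted p = 2.59e-99). KCNH4 (ENSG00000089558.9, chromosome 17, 42156891 to 42181142, minus strand), a voltage-gated potassium channel, was at 0.132 and 0.0333 CPM with Corin and 16.01 and 14.4 CPM with both agents (log2 fold change 7.38, SE 0.33, adjusted p = 1.34e-111). In these genes too the Corin libraries were below 1 CPM. ARL14EPL (ENSG00000268223.5, chromosome 5, 116032324 to 116060118, plus strand) had 2 and 1 counts with Corin and 1568 and 1427 counts with both agents, a ratio of 1058 with an exact 95% counting interval of 362 to 5132. OR5AN1 (ENSG00000176495.3, chromosome 11, 59358895 to 59371714, plus strand), an olfactory receptor gene, had 2 and 1 counts with Corin and 596 and 322 counts with both agents, a ratio of 324 and an interval from 111 to 1575. The OR5AN1 libraries with ATRA lay apart, at 17.2 and 10.9 CPM.

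**Figure D2:**
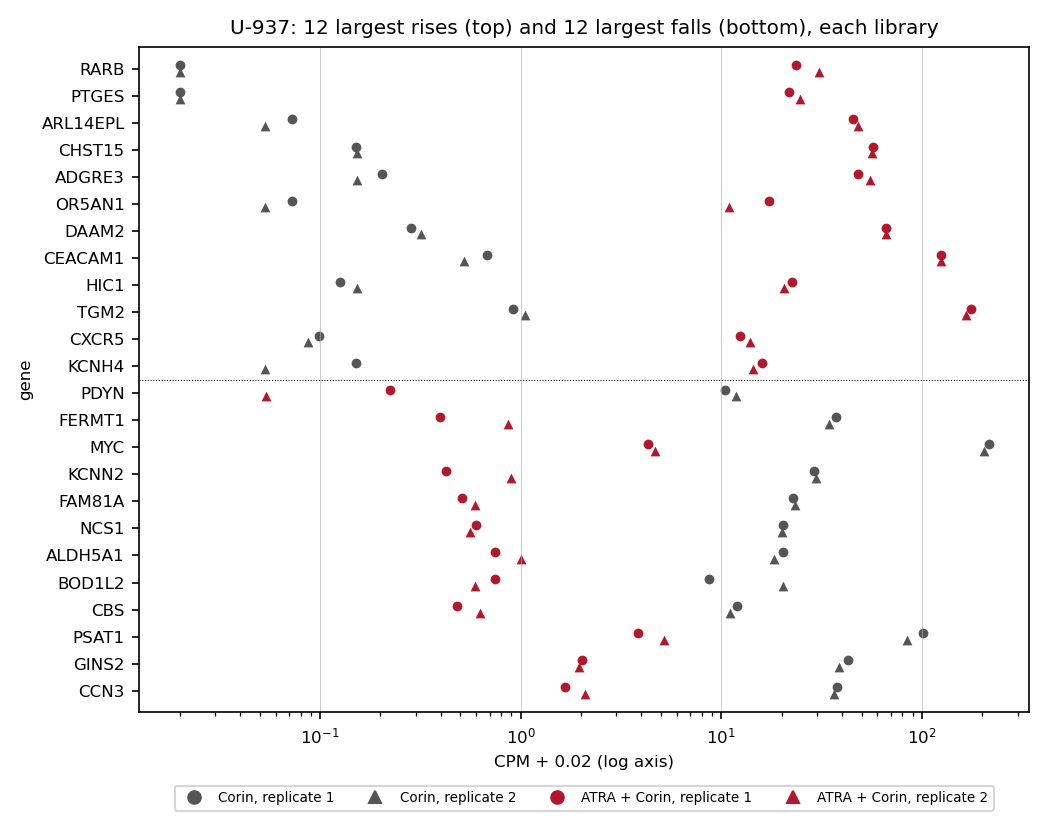
Level of the 24 named genes in each of the 4 U-937 libraries (horizontal log axis, CPM + 0.02), with Corin libraries in grey, libraries with both agents in red, circles for replicate 1 and triangles for replicate 2. The groups do not overlap in any of the 24, as the rule required. The Corin replicates of BOD1L2 lie apart, at 8.63 and 20.2 CPM.

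The largest falls took well-expressed genes to near silence. MYC (ENSG00000136997.19, chromosome 8, 127735434 to 127742951, plus strand), the transcription factor of growth and ribosome production, was at 215 and 205 CPM with Corin and 4.31 and 4.63 CPM with both agents (log2 fold change -5.55, SE 0.16, adjusted p = 1.17e-270). That is a 47.0-fold lower level, with replicates that differed little. FERMT1 (ENSG00000101311.15, chromosome 20, 6074845 to 6123214, minus strand), which encodes kindlin-1, an integrin activator, was at 37.3 and 34.5 CPM with Corin and 0.376 and 0.845 CPM with both agents (log2 fold change -5.91, SE 0.21, adjusted p = 4.69e-177). PDYN (ENSG00000101327.9, chromosome 20, 1978757 to 1994285, minus strand), the precursor of dynorphin peptides, was at 10.5 and 11.8 CPM with Corin and 0.202 and 0.0338 CPM with both agents (log2 fold change -6.44, SE 0.34, adjusted p = 8.52e-80). KCNN2 (ENSG00000080709.15, chromosome 5, 114055926 to 114496500, plus strand), a calcium-activated potassium channel, was at 28.9 and 29.6 CPM with Corin and 0.405 and 0.879 CPM with both agents (log2 fold change -5.54, SE 0.21, adjusted p = 4.44e-150). In these 4 genes, levels with ATRA were under 5 CPM.

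FAM81A (ENSG00000157470.12, chromosome 15, 59372693 to 59523555, plus strand) was at 22.8 and 23.2 CPM with Corin and 0.491 and 0.575 CPM with both agents (log2 fold change -5.43, SE 0.23, adjusted p = 7.35e-124). NCS1 (ENSG00000107130.10, chromosome 9, 130172404 to 130237303, plus strand), a calcium sensor, was at 20.4 and 20.2 CPM with Corin and 0.578 and 0.541 CPM with both agents (log2 fold change -5.17, SE 0.23, adjusted p = 1.27e-108). ALDH5A1 (ENSG00000112294.12, chromosome 6, 24494867 to 24537207, plus strand), which breaks down a product of the transmitter GABA, was at 20.2 and 18.4 CPM with Corin and 0.723 and 0.9802 CPM with both agents (log2 fold change -4.51, SE 0.22, adjusted p = 1.70e-92). Each of these genes kept under 5% of its Corin level. CCN3 (ENSG00000136999.5, chromosome 8, 119416446 to 119424434, plus strand), a matrix-associated signalling protein, was at 37.6 and 36.5 CPM with Corin and 1.65 and 2.06 CPM with both agents (log2 fold change -4.32, SE 0.17, adjusted p = 4.53e-135). BOD1L2 (ENSG00000228075.5, chromosome 18, 57147087 to 57150410, plus strand) was at 8.63 and 20.2 CPM with Corin and 0.723 and 0.575 CPM with both agents, but it is a close copy of another gene and uncertain. Its call was lost without combination replicate 1 (edgeR adjusted p = 0.225) and without combination replicate 2 (0.111), and no other named gene lost its call. CBS, PSAT1 and GINS2 complete the 12 and are given with their pathways below.

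Surface receptors of phagocytes rose nearly throughout. Of 26 listed genes 23 were tested, and 21 were called higher, none lower, with a median log2 fold change of 1.92. Over all genes tested 29.7% were called higher and 32.3% lower, and the counts of every list stand beside these shares. The chains of the beta-2 integrins, by which phagocytes adhere and take up complement-coated particles, rose in all 4 listed genes. ITGAM (CD11b), the usual marker of myeloid maturation, was at 56.9 and 53.4 CPM with Corin and 359.7 and 375 CPM with both agents (log2 fold change 2.74, SE 0.14, adjusted p = 1.91e-88). ITGAX (CD11c) went from 24.7 and 24.97 to 139 and 114 CPM, ITGAL from 62.2 and 63.6 to 314 and 284 CPM, and their common chain ITGB2 from 184 and 188 to 481 and 482 CPM. The complement receptor CR1 went from 23.2 and 25.6 to 281 and 296 CPM (log2 fold change 3.56, SE 0.14, adjusted p = 7.00e-143). C5AR1, the receptor of the complement peptide C5a, went from 4.74 and 4.17 to 55.6 and 57.9 CPM (log2 fold change 3.67, SE 0.15, adjusted p = 9.34e-131).

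FPR1, the receptor for bacterial formyl peptides, had the largest rise of the list, at 0.789 and 1.03 CPM with Corin and 31.2 and 36.7 CPM with both agents (log2 fold change 5.23, SE 0.19, adjusted p = 5.97e-158). The costimulatory molecule CD86 went from 5.79 and 5.37 to 156 and 186 CPM (log2 fold change 4.94, SE 0.15, adjusted p = 4.30e-232), and the scavenger receptor CD36 from 39.6 and 39.8 to 778 and 912 CPM (log2 fold change 4.41, SE 0.16, adjusted p = 8.83e-160). Of the Toll-like receptors TLR1 (3.85), TLR8 (3.03) and TLR4 (1.28) rose, and TLR2 was at 0.13 and not called. The Fc receptor genes FCGR1A (1.89), FCGR2A (0.99) and FCGR2B (1.58) were called higher but have close relatives and are uncertain. CD163, a haemoglobin scavenger receptor of macrophages, was not called (-0.45). CD14, MRC1 and MSR1 were under 0.3 CPM in every library and were not tested.

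The phagocyte NADPH oxidase rose with them, with 6 of its 7 genes called higher and a median of 1.12. Its membrane subunit CYBB was at 76.7 and 69.8 CPM with Corin and 554 and 688 CPM with both agents (log2 fold change 3.08, SE 0.15, adjusted p = 1.50e-95). CYBA (1.12) and NCF4 (0.89) rose by less, and the value of NCF1 (2.44) is uncertain, since it has near-identical pseudogenes.

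Of 9 tested azurophil granule genes 4 were called higher (44.4%) and 3 lower (33.3%), not far from the 29.7% and 32.3% of all genes, so the list did not move 1 way. The serine proteases of the granule fell: PRTN3 from 55.3 and 49.2 to 17.8 and 18.8 CPM (log2 fold change -1.51, SE 0.13, adjusted p = 5.37e-30), CTSG from 714 and 587 to 235 and 282 CPM (log2 fold change -1.33, SE 0.14, adjusted p = 6.35e-20) and ELANE from 46.3 and 39.6 to 22.5 and 21.8 CPM (log2 fold change -0.96, SE 0.13, adjusted p = 5.21e-13). BPI, a protein that permeabilises bacteria, went from 0.605 and 0.833 to 70.6 and 81.3 CPM (log2 fold change 6.74, SE 0.19, adjusted p = 1.17e-268). Of 6 tested genes of the later granules 5 were higher and 1 was lower. Most were under 10 CPM, and only 3 were higher with DESeq2 and with a stricter filter on low counts, and 2 without Corin replicate 1. CHI3L1 stood at 44.2 and 43.3 CPM with Corin and 158 and 158 CPM with both agents (log2 fold change 1.85, SE 0.13, adjusted p = 9.33e-48) and CAMP went from 1.89 and 1.53 to 7.17 and 7.27 CPM.

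Among myeloid transcription factors 6 of 14 were called higher (42.9%) and 2 lower (14.3%), with a median of 0.22. Over all genes tested these shares were 29.7% and 32.3%. CEBPB went from 17.1 and 14.4 to 66.02 and 77.5 CPM (log2 fold change 2.18, SE 0.13, adjusted p = 6.31e-59). PPARG (0.804) and SPI1 (0.62) rose slightly. IRF8, a factor of monocyte commitment, fell from 164 and 148 to 60.8 and 69.5 CPM (log2 fold change -1.26, SE 0.12, adjusted p = 2.03e-23). The other fall, of EGR3, was lost in 5 of the alternatives run, without Corin replicate 2 and without combination replicate 2 among them. CEBPA (-0.22), KLF4 (-0.38) and EGR1 (-0.02) were not called.

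Interferon-stimulated genes were called higher in 18 of 24 cases and lower in 2, with a median of 1.76. The 2'-5' oligoadenylate synthetase OAS1, matched by its identifier because the table gives it a clone name, went from 8.63 and 7.87 to 408 and 459 CPM (log2 fold change 5.71, SE 0.16, adjusted p = 1.07e-269). OAS2 went from 6.08 and 6.4 to 42.4 and 47.6 CPM, GBP2, a guanylate-binding protein, from 7.84 and 7.13 to 70.5 and 85.1 CPM (log2 fold change 3.37, SE 0.14, adjusted p = 3.69e-121), and IFIT2 from 2.66 and 2.3 to 19.2 and 22.5 CPM. The transcription factor IRF1 went from 19.3 and 20.3 to 153 and 149 CPM (log2 fold change 2.93, SE 0.13, adjusted p = 5.75e-106), and IRF9, the DNA-binding part of the interferon-stimulated complex, from 5.47 and 5.57 to 27.7 and 28.4 CPM. The 2 groups did not overlap in any of these 6 genes, and they overlapped in only 20.7% of all genes tested. ISG15 (0.31), MX1 (-0.15) and RSAD2 (0.05) were not called, and MX2 fell from 147 and 138 to 101 and 100.2 CPM (log2 fold change -0.503, SE 0.12, adjusted p = 9.93e-05). The other fall, of IFITM1, was lost in 9 alternatives, and the call of IFI44 was lost in 9. CXCL10 was under 1 CPM in every library.

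Antigen presentation followed in part. Of 12 class I genes 10 were called higher and 2 lower. HLA-E went from 115 and 104 to 272 and 294 CPM (log2 fold change 1.37, SE 0.13, adjusted p = 9.54e-26) and B2M, the light chain, from 1213 and 1048 to 2217 and 2569 CPM (log2 fold change 1.08, SE 0.17, adjusted p = 4.53e-10). TAP2, a peptide transporter, fell from 50.8 and 53.2 to 22 and 23.2 CPM (log2 fold change -1.202, SE 0.13, adjusted p = 8.06e-20), and the fall of PSMB8 (-0.29) was lost in 5 alternatives, among them DESeq2 (adjusted p = 0.0816), the replicate block (edgeR, 0.0911) and the fits without Corin replicate 1 (edgeR, 0.281) and without combination replicate 1 (edgeR, 0.275). In class II 4 of 6 were called higher. HLA-DMA, which loads peptides, went from 17.4 and 15.3 to 59.8 and 64.6 CPM (log2 fold change 1.93, SE 0.13, adjusted p = 6.99e-47), whereas CIITA, the master regulator of class II genes, fell from 16.3 and 16.97 to 6.42 and 4.597 CPM (log2 fold change -1.59, SE 0.17, adjusted p = 4.02e-20). HLA genes are variable and alike, and their values are uncertain.

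Of 16 chemokine and receptor genes 9 were called higher (56.25%) and 3 lower (18.75%), against 29.7% and 32.3% of all genes. CCL24, a chemoattractant for eosinophils, went from 0.0789 and 0.10 to 9.48 and 13.2 CPM (log2 fold change 6.95, SE 0.35, adjusted p = 3.61e-85), CCR1 from 13.8 and 13.8 to 74.03 and 84.97 CPM (log2 fold change 2.53, SE 0.13, adjusted p = 5.30e-76) and CXCR4 from 402 and 362 to 1163 and 1338 CPM (log2 fold change 1.71, SE 0.15, adjusted p = 2.48e-27). The monocyte chemoattractant CCL2 fell from 49.2 and 47.6 to 4.02 and 4.16 CPM (log2 fold change -3.57, SE 0.15, adjusted p = 2.12e-118) and CCL5 from 68.4 and 59.7 to 26.4 and 29.9 CPM. CXCL8 was not called (0.24). Of 13 cytokine and inflammasome genes 10 were called higher and 1 lower. The inflammasome sensor NLRC4 went from 13.1 and 10.7 to 103 and 124 CPM (log2 fold change 3.25, SE 0.14, adjusted p = 1.06e-120), and IL1B (1.86), IL18 (1.37), CASP1 (1.798) and NLRP3 (1.17) also rose. IL1RN, the natural antagonist of IL-1, fell from 13.3 and 12.5 to 5.26 and 6.73 CPM (log2 fold change -1.11, SE 0.17, adjusted p = 8.37e-10).

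Lipid mediator genes were called higher in 8 of 8 cases, with a median of 2.0, and in 5 with DESeq2. ALOX5AP, which presents arachidonic acid to 5-lipoxygenase, went from 65.7 and 53.8 to 425 and 509.6 CPM (log2 fold change 2.97, SE 0.14, adjusted p = 4.65e-96). PTGS1, the constitutive cyclooxygenase, went from 101 and 101 to 695 and 722 CPM (log2 fold change 2.81, SE 0.15, adjusted p = 2.01e-78), and TBXAS1, thromboxane synthase, from 38.9 and 40.9 to 167 and 187 CPM (log2 fold change 2.15, SE 0.13, adjusted p = 2.58e-62). The calcium-binding S100 genes were called higher in 9 of 9 cases, with a median of 1.51. S100A8 went from 8.32 and 6.27 to 51.4 and 62.6 CPM (log2 fold change 2.96, SE 0.14, adjusted p = 1.68e-95) and its partner S100A9 from 36.6 and 30.3 to 187 and 201 CPM (log2 fold change 2.53, SE 0.13, adjusted p = 5.24e-83). S100A12 was uneven with ATRA, at 1.53 and 3.35 CPM, and its call was lost without combination replicate 2 (edgeR adjusted p = 0.0668).

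Lysosomal genes were called higher in 19 of 24 cases and lower in 1, with a median of 0.78. PSAP, the saposin precursor, went from 293 and 250.3 to 1627 and 1748 CPM (log2 fold change 2.63, SE 0.16, adjusted p = 1.25e-56), and the protease CTSD from 546 and 509 to 3063 and 2662 CPM (log2 fold change 2.44, SE 0.17, adjusted p = 2.17e-43). The fall was that of NPC1, a cholesterol exporter of the lysosome, from 337 and 359.5 to 188 and 198 CPM (log2 fold change -0.85, SE 0.13, adjusted p = 3.93e-10). Cholesterol genes were mixed, with 9 of 20 called higher (45.0%) and 3 lower (15.0%), against 29.7% and 32.3% of all genes. The efflux pump ABCA1 went from 0.50 and 0.633 to 7.08 and 8.31 CPM (log2 fold change 3.77, SE 0.29, adjusted p = 1.88e-38) and its regulator NR1H3, the liver X receptor alpha, from 4.63 and 4.2 to 28.6 and 26.9 CPM (log2 fold change 2.65, SE 0.16, adjusted p = 3.37e-61). INSIG1, which holds back sterol synthesis, fell from 787 and 773 to 350.3 and 389 CPM (log2 fold change -1.08, SE 0.15, adjusted p = 7.24e-13). The synthesis enzymes HMGCS1, SQLE, FDFT1, FDPS, LSS and DHCR7 were not called, between -0.15 and 0.13.

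**Figure D3:**
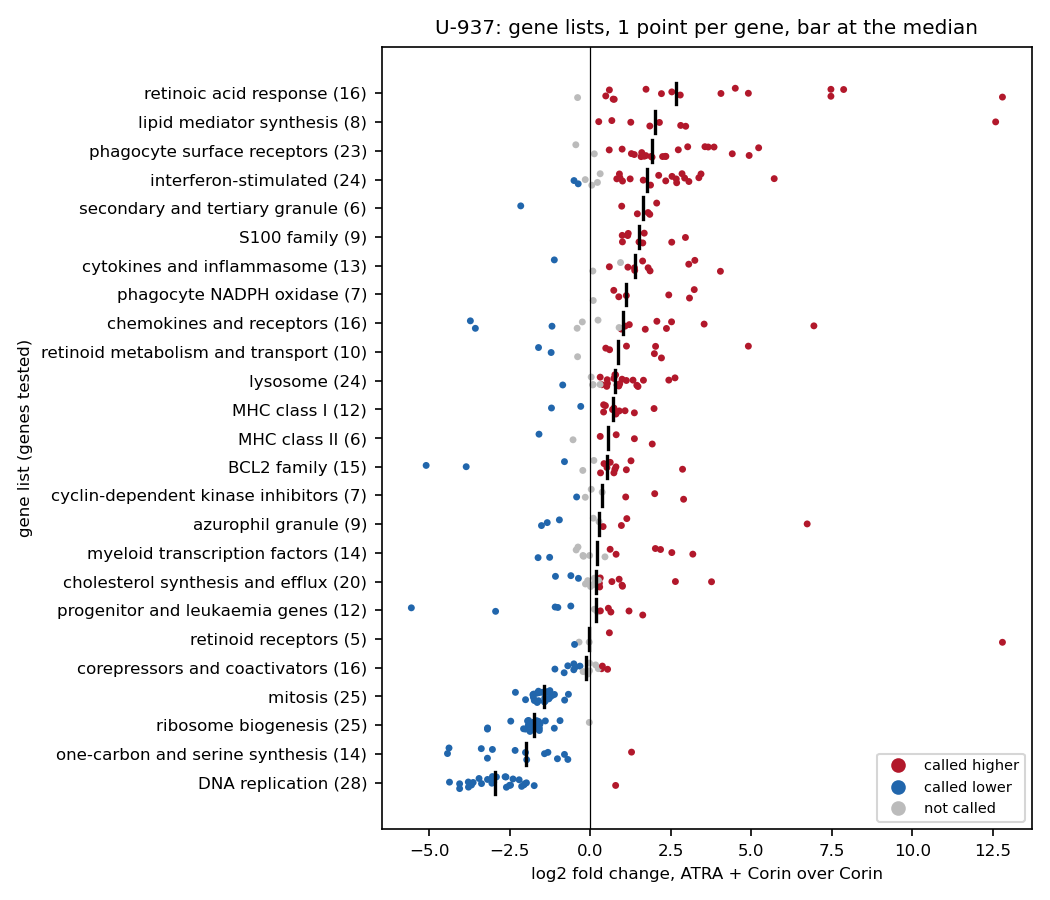
Log2 fold change of ATRA with Corin over Corin alone in U-937 for each tested gene of 25 lists (points, red called higher, blue called lower, grey not called), with a bar at the list's median and the number of genes tested in brackets. The lists of DNA replication, serine and folate metabolism, ribosome biogenesis and mitosis have the lowest medians, and those of the retinoic acid response, lipid mediators and phagocyte receptors have the highest medians, 2.67, 2.0 and 1.92.

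The DNA replication list had the lowest median of the 29 lists. Of its 28 genes 27 were called lower and 1 higher, with a median of -2.95. GINS2 (ENSG00000131153.9, chromosome 16, 85676198 to 85690073, minus strand), part of the replicative helicase, was at 42.6 and 38.6 CPM with Corin and 1.99 and 1.93 CPM with both agents (log2 fold change -4.37, SE 0.17, adjusted p = 2.44e-143). CDC6, which loads that helicase, went from 61.7 and 58.4 to 2.92 and 4.36 CPM (log2 fold change -4.05, SE 0.15, adjusted p = 1.75e-150), and CDT1, its partner, from 12.7 and 13.6 to 0.983 and 0.913 CPM (log2 fold change -3.78, SE 0.23, adjusted p = 7.25e-58). The helicase genes MCM2 to MCM7 fell by 2.62 to 3.78 on the log2 scale, and MCM6 went from 573 and 542 to 38.1 and 48.5 CPM. PCNA, the sliding clamp, went from 444 and 405 to 68.4 and 84.4 CPM (log2 fold change -2.47, SE 0.14, adjusted p = 4.62e-71), and TYMS, thymidylate synthase, from 118 and 121 to 14.05 and 15.04 CPM (log2 fold change -3.04, SE 0.14, adjusted p = 9.41e-109). Groups were far apart in each of these genes. The activator E2F1 fell from 25.1 and 27.1 to 3.15 and 3.38 CPM (log2 fold change -2.996, SE 0.17, adjusted p = 2.63e-70). E2F2, a close relative, was the exception and rose from 27.9 and 31.2 to 51.4 and 50.9 CPM (log2 fold change 0.79, SE 0.13, adjusted p = 2.17e-09).

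E2F factors switch on replication genes through a short motif, and 4 words of it were searched on both strands: TTTCCCGC, TTTCGCGC, TTTGCCGC and TTTGGCGC. These and the E-box below were chosen after values had been seen, and words can overlap. A word was found in 16 of 30 windows of the replication list (53.3%), against 3.31% of all 35116 windows, 6.53% of windows of genes called lower and 3.96% of those of genes called higher. The windows below show it upstream of 4 genes that fell and of E2F2, which rose, with the words in capitals.
GINS2, chr16:85688955-85689015, minus strand: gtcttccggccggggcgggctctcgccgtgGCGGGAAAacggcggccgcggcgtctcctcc
MCM6, chr2:135876492-135876559, minus strand: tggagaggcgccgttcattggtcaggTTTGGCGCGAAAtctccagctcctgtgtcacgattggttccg
TYMS, chr18:657584-657651, plus strand: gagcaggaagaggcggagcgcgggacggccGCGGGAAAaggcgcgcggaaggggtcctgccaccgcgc
E2F1, chr20:33686386-33686435, minus strand: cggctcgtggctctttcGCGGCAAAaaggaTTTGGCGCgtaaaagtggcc
E2F2, chr1:23531238-23531305, minus strand: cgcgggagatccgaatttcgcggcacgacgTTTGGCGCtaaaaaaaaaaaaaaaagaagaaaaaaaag
A word was present upstream of the gene that rose as well as of genes that fell, and any role of the motif was not tested.

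**Figure D4:**
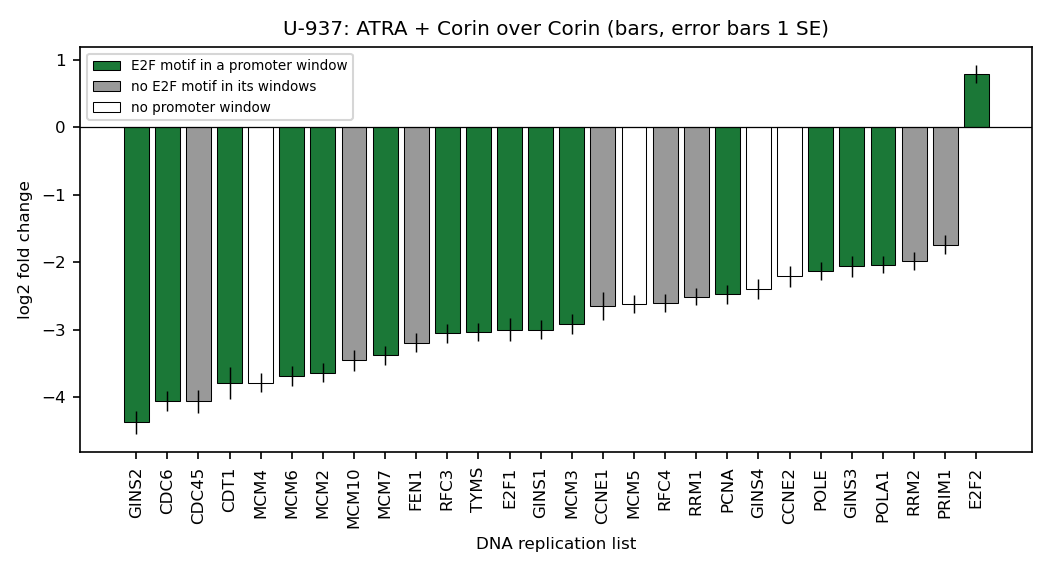
Log2 fold change of ATRA with Corin over Corin alone in U-937 for the 28 genes of the DNA replication list (bars, error bars 1 SE), coloured by whether a RefSeq promoter window of the gene holds an E2F word. From GINS2 (-4.37) to PRIM1 (-1.74) 27 genes lie below 0, with and without a word in a window, and E2F2 (0.79) lies above.

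Mitosis genes all fell, by less. All 25 were called lower, with a median of -1.42 and a range of -2.32 to -0.68. The spindle checkpoint gene MAD2L1 went from 87 and 82.1 to 15.2 and 18.7 CPM (log2 fold change -2.32, SE 0.13, adjusted p = 1.74e-66) and the proliferation marker MKI67 from 749 and 920.5 to 195 and 221 CPM (log2 fold change -2.01, SE 0.15, adjusted p = 1.31e-40). CDK1, the kinase that starts mitosis, went from 125 and 115 to 39.3 and 52.1 CPM (log2 fold change -1.39, SE 0.12, adjusted p = 5.83e-28), and BUB1 fell least (-0.68, SE 0.13). Of 7 cyclin-dependent kinase inhibitors 3 were called higher: CDKN1A (p21), from 8.13 and 8.47 to 58.3 and 65.6 CPM (log2 fold change 2.900, SE 0.14, adjusted p = 1.34e-93), CDKN2B (p15), from 3.32 and 3.03 to 13.2 and 12.3 CPM, and CDKN2D, from 9.37 and 7.8 to 18.6 and 18.3 CPM. CDKN1B (p27) was not called (0.03). Of this list 42.9% were called higher and 14.3% lower, against 29.7% and 32.3% of all genes. CDKN2C was lower, and that call was lost without Corin replicate 1 (edgeR adjusted p = 0.0962) and without combination replicate 1 (0.0635).

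Ribosome biogenesis genes were called lower in 24 of 25 cases, with a median of -1.74. NOLC1, a nucleolar phosphoprotein, went from 480.3 and 459 to 48.2 and 55.1 CPM (log2 fold change -3.19, SE 0.14, adjusted p = 1.54e-108) and BOP1, of the large subunit pathway, from 29.1 and 24.1 to 2.89 and 2.94 CPM (log2 fold change -3.19, SE 0.17, adjusted p = 7.76e-78). NCL, nucleolin, went from 1014 and 948 to 310.2 and 356 CPM (log2 fold change -1.56, SE 0.15, adjusted p = 2.59e-24). RRN3, a factor of RNA polymerase I, was not called (-0.03). The E-box CACGTG, the motif bound by MYC, was found in 10 of 25 windows of this list (40%), against 7.26% of all windows, 10.9% of those of genes called lower and 8.66% of those of genes called higher.

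The enzymes that make serine and feed carbon into nucleotides were called lower in 13 of 14 cases, with a median of -1.99. PSAT1 (ENSG00000135069.14, chromosome 9, 78297125 to 78330093, plus strand), of serine synthesis, was at 102 and 84.2 CPM with Corin and 3.82 and 5.14 CPM with both agents (log2 fold change -4.38, SE 0.15, adjusted p = 1.03e-177). PHGDH, which starts that pathway, went from 149 and 132 to 12.98 and 17.8 CPM (log2 fold change -3.19, SE 0.14, adjusted p = 1.39e-119). MTHFD1L, of the mitochondrial folate pathway, went from 77.8 and 78.7 to 6.71 and 8.35 CPM (log2 fold change -3.38, SE 0.14, adjusted p = 6.86e-121). CBS (ENSG00000160200.17, chromosome 21, 43053191 to 43076943, minus strand), which joins homocysteine to serine, was at 12.03 and 11.03 CPM with Corin and 0.462 and 0.608 CPM with both agents (log2 fold change -4.43, SE 0.26, adjusted p = 1.10e-61), and it has a near-identical copy, so its value is uncertain. ASNS, asparagine synthetase, fell least (-0.69, SE 0.16). The cystine importer SLC7A11 rose, from 30.9 and 26.4 to 68.9 and 70.8 CPM (log2 fold change 1.28, SE 0.13, adjusted p = 8.84e-23).

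Regulators of apoptosis went both ways, with 10 of 15 genes of the BCL2 family called higher and 3 lower. The survival gene BCL2 fell from 90 and 105 to 7.26 and 6.22 CPM (log2 fold change -3.85, SE 0.15, adjusted p = 3.13e-151). Its relatives MCL1, from 190.3 and 200.3 to 313 and 367 CPM (log2 fold change 0.799, SE 0.13, adjusted p = 4.59e-09), and BCL2A1, from 39.8 and 36.1 to 84.4 and 98.5 CPM (log2 fold change 1.27, SE 0.13, adjusted p = 5.33e-23), rose. BMF, which opposes them, went from 16.5 and 19.5 to 131 and 131 CPM (log2 fold change 2.87, SE 0.13, adjusted p = 1.27e-100), and BCL2L11 was not called (0.11).

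Genes of progenitors and leukaemia were called higher in 5 of 12 cases and lower in 5 (41.7% each), against 29.7% and 32.3% of all genes, and the list did not move 1 way. Besides MYC, MYB fell from 692 and 657 to 308 and 327 CPM (log2 fold change -1.09, SE 0.14, adjusted p = 1.65e-13), ERG from 5.24 and 5.3 to 0.723 and 0.642 CPM (log2 fold change -2.94, SE 0.30, adjusted p = 7.13e-22) and BMI1 from 589.7 and 604 to 289 and 306 CPM (log2 fold change -1.004, SE 0.14, adjusted p = 5.51e-12). MEIS1 (0.56) and SOX4 (1.205) rose, and HOXA10 was not called (0.13). Genes of the complex that Corin inhibits changed too. KDM1A went from 237 and 224 to 102 and 114 CPM (log2 fold change -1.096, SE 0.13, adjusted p = 2.10e-17) and HDAC2 from 192 and 184 to 99.4 and 115 CPM (log2 fold change -0.81, SE 0.12, adjusted p = 3.11e-10), whereas RCOR1, the scaffold of CoREST, was at -0.07 and not called. HDAC1 was higher by 0.35, and that call was lost without Corin replicate 2 (edgeR adjusted p = 0.153), without combination replicate 2 (0.0805) and with the replicate block (0.0513). Against 29.7% and 32.3% of all genes, 3 of 16 corepressors and coactivators were called higher (18.75%) and 7 lower (43.75%). The latter count was 4 without Corin replicate 2 and 4 with protein-coding genes alone.

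The kinds of gene differed in direction. Of 12603 protein-coding genes tested 3770 were called higher (29.9%) and 4840 lower (38.4%). Of 2781 long non-coding RNA genes 899 were higher (32.3%) and 388 lower (14.0%). Small nucleolar RNAs were higher in 43 of 66 cases and lower in 2. The higher share of non-coding counts stands beside these values, and its part in them was not tested. Genes called higher and lower had like median GC content, 47.9% and 47.6%, and the log2 fold change had a Pearson correlation of -0.011 with GC content across 16974 genes, which are not independent replicates.

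The same addition of ATRA to Corin had a different effect in SKNO-1, a myeloid line with a RUNX1-RUNX1T1 fusion whose medium also held GM-CSF, so line and medium cannot be told apart. A fit of 8 libraries, 2 per group in each line, tested the difference directly. It was called in 8565 of 19290 genes (44.4%), 4018 with a higher effect in U-937 (20.8%) and 4547 with a lower one (23.6%). Within SKNO-1 the same fit called 4137 genes (21.4%), 2468 higher (12.8%) and 1669 lower (8.65%). The 10563 genes called in U-937 come from the fit of 4 libraries and 17053 genes, so the 2 counts are not directly comparable. In the 8-library fit the median effect over the 18 tested genes of the retinoic acid list was 2.44 in U-937 and 1.39 in SKNO-1. The difference was called for 8 of these genes, 5 higher and 3 lower in U-937.

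Among genes of the list with counts in every group TGM2 differed the most. In SKNO-1 it was at 6.89 and 8.05 CPM with Corin and at 20.6 and 22.9 CPM with both agents, so it began above U-937 and ended below it. The log2 effect of 7.55 in U-937 exceeded that of 1.54 in SKNO-1 by 6.004 (SE 0.18). CD38 was at 390.5 and 386.7 CPM with Corin in SKNO-1 and at 301.9 and 296.4 CPM with both, an effect of -0.38 against 4.58. TNFSF10 fell in SKNO-1 too, from 93.1 and 88.0 to 36.6 and 36.0 CPM (-1.32 against 0.78). In the opposite sense, DHRS3 had an effect of 8.13 in SKNO-1, from 4 and 3 counts to 933 and 987, against 4.98 in U-937. ASB2 had 3.14 against 0.82. For HIC1, which rose in both lines (6.99 and 7.55), the difference was not called, at 0.55 with an SE of 0.51. For a gene with 0 counts in a group the size of the difference is not fixed by the counts, and the calls depended on the tool. RARB went from 0 counts to 75 and 70 in SKNO-1, and CYP26A1 went from 1 and 0 to 636 and 724 counts there, against 0 in each U-937 library. The CYP26A1 difference was not called by edgeR and was called by DESeq2 (adjusted p = 1.82e-04), as was that of DAAM2 (0.0069).

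**Figure D5:**
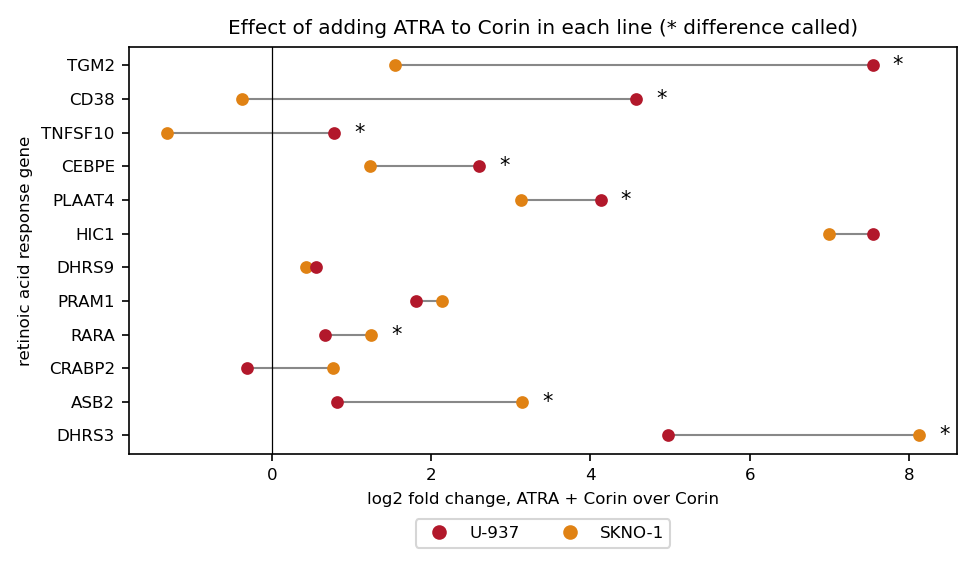
Log2 fold change of ATRA with Corin over Corin alone in U-937 (red) and SKNO-1 (orange) for the 12 retinoic acid response genes with counts in every group; a star marks a difference called at an adjusted p under 0.05. TGM2, CD38, TNFSF10, CEBPE and PLAAT4 have the higher effect in U-937, and DHRS3, ASB2 and RARA in SKNO-1.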

How the data were processed

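Total RNA of 2 libraries per group was sequenced from stranded libraries. The authors deposited estimated counts and TPM per gene from RSEM on hg38, per the file headers and names, and the submitters' processing notes also name Trimmomatic, STAR, deepTools and DESeq2 without versions. How strand was used and the annotation release are not given in the sources used here, so overlapping, antisense and near-identical genes are uncertain. The labels give paired-end reads of 100 bp, whereas file names mark single-end reads and length minus effective length was 99.7 bases (median).

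Estimated counts were rounded to whole numbers (20% of positive values were not whole, and no library total moved by more than 24.07) and tested with edgeR 4.0.16 in R 4.3.3: filterByExpr, TMM, and a robust quasi-likelihood fit of the 4 libraries without a replicate block (common biological coefficient of variation 0.107). The difference between lines is an interaction contrast of 8 libraries. DESeq2 1.42.0 was an alternative. SE was taken as the log2 fold change before shrinkage over the square root of F, and is left out where a group has 0 counts. A fold against 0 counts uses a floor of 3 counts over the group. Intervals and floors cover counting error only. No permutation test of a single gene was run, because 2 against 2 libraries cannot go below p = 0.333. TPM served only to rank changes in level among genes in the closing section.

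Named genes are the 12 largest rises and 12 largest falls among called genes with a symbol that is not a clone name, at least 5 CPM on average and groups that do not overlap. Genes of 29 lists can be named as well, and some of them are counted with their list but not reported here by name. The comparison, lists and rules were chosen with earlier results of these data known. Lists are described by counts and medians, with no test. Positions are GENCODE 44 on GRCh38, matched by identifier, and promoter sequences are RefSeq's (GRCh38.p14). In a check on simulated data for this comparison (16606 genes) 65.7% of 99 genes changed by log2 1 and 88.9% of 99 changed by log2 2 were called, with 0.04% of 16408 unchanged genes. The simulation changed few genes, up and down alike, took its spread from the fit itself and held no shift in non-coding RNA. It therefore checks that the code runs rightly and does not measure the error rate in these data. Alternatives changed scaling, tool, filter, libraries in the fit, block, GC correction, rounding and each library.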

Additional observations from a re-analysis of the deposited data

Results flagged for a closer look

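For 8 of the 18 tested genes of the retinoic acid response list, the effect of adding ATRA to Corin differed between U-937 and SKNO-1. This was a direct test (edgeR interaction contrast, adjusted over 19290 genes, 2 libraries per group). The same test called 8565 of all 19290 genes (44.4%), a share like that of the list, so the list did not stand out. The log2 effect in U-937 minus that in SKNO-1 was 6.004 for TGM2, 4.95 for CD38 (adjusted p = 2.24e-14), 2.10 for TNFSF10 (3.83e-09), 1.37 for CEBPE (1.48e-06) and 1.01 for PLAAT4 (0.00424). It was -0.58 for RARA (0.00757), -2.32 for ASB2 (1.16e-09) and -3.15 for DHRS3 (2.05e-06). CD38 and TNFSF10 were called higher in U-937 and lower in SKNO-1. The RARA difference lost its call with DESeq2 (adjusted p = 0.0571), without SKNO-1 Corin replicate 2 (edgeR, 0.0607) and without SKNO-1 combination replicate 1 (edgeR, 0.0529). DESeq2 also called the differences of CYP26A1 (-10.27, adjusted p = 1.82e-04) and DAAM2 (5.51, 0.0069), each of which has a group at 0 counts. Without U-937 combination replicate 1 edgeR also called CRABP2 (-1.88, 0.0432) and PRAM1 (-0.67, 0.0141). No gene was examined for an outlying library, since groups hold 2.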

How the results depend on the processing

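The number of genes called in U-937 (10563) stayed within 1.5 times under each alternative run. It was 9914 with library totals only, 8899 with DESeq2, 10407 with no low-count filter, 9743 with a stricter filter, 10710 with all 8 U-937 libraries, 10333 with the GC trend removed, 10568 with counts not rounded, and 9245 to 9560 with 1 library left out. With library totals only, the median log2 fold change was -0.10 and 41.3% of calls were higher, against 47.9%. Calls shared with an alternative kept their sign in every alternative. Of the values of single genes under alternatives 5140 kept their side of the threshold, 147 lost and 38 gained a call, and none reversed, and BOD1L2 was the only named gene to lose its own. The difference between lines (8565 genes) ranged from 7358 to 8534. The labels' replicate numbers are not stated to pair libraries, and same-numbered libraries deviated in opposite directions (correlation -0.449). A replicate block gave 9368 genes in U-937 and 8033 between lines. A block with crossed numbers, chosen after the data were seen, gave 11680, and protein-coding genes only, also added later, gave 8838. Depth limits genes with few counts: the fold of a gene near 0 counts with Corin is uncertain.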

Other observations

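Changes in level were also ranked in TPM. The named genes, which include the largest folds, were left out beforehand, so the ranking cannot be compared with them. Outside the lists and named genes, the called protein-coding genes with the largest gains and losses in TPM were taken after values were seen, 12 each way. FTL, the ferritin light chain that stores iron, had the largest gain, from 2023 and 1977 to 4459.6 and 4534 TPM (log2 fold change 1.596, SE 0.18, adjusted p = 1.50e-17), and it has many processed copies, so its value is uncertain. SAT1, which breaks down polyamines, went from 97.3 and 119 to 871 and 912 TPM (log2 fold change 3.48, SE 0.16, adjusted p = 4.44e-102). GRN, the lysosomal protein progranulin, went from 102 and 118 to 802 and 796 TPM (log2 fold change 3.28, SE 0.16, adjusted p = 1.24e-86). The lipid droplet coat PLIN2 went from 29.02 and 27.2 to 609.7 and 583 TPM (log2 fold change 4.797, SE 0.17, adjusted p = 8.08e-164), and PGD, an enzyme of the pentose phosphate pathway that yields NADPH, from 127 and 128 to 649.8 and 653 TPM (log2 fold change 2.76, SE 0.16, adjusted p = 1.27e-61). APLP2, PLEK, IFI30, TMSB10 and ITGA6 were also among the gains.

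GLO1, which detoxifies methylglyoxal, had the largest loss, from 2029.7 and 2014 to 382 and 416 TPM (log2 fold change -1.91, SE 0.18, adjusted p = 1.59e-25). The chaperone HSP90AB1 went from 1199 and 1168 to 289 and 307 TPM (log2 fold change -1.56, SE 0.17, adjusted p = 1.19e-18), the peroxiredoxin PRDX1 from 1061 and 1018 to 154 and 175 TPM (log2 fold change -2.23, SE 0.15, adjusted p = 4.10e-48) and the tubulin TUBA1B from 1345 and 1227 to 467 and 474 TPM (log2 fold change -1.02, SE 0.16, adjusted p = 2.04e-09). Chaperones of the endoplasmic reticulum, CALR (-0.9998) and P4HB (-0.71), were among the losses. So were the glycolytic genes GAPDH (-0.497) and ENO1 (-0.49), which are often used as references. All of these are log2 fold changes of counts by edgeR. TPM is scaled otherwise: the losses named here are larger in TPM than by edgeR, and the gains are smaller. GAPDH averaged 1596 TPM with Corin and 844 TPM with both agents, beside a 1.41-fold fall by edgeR. The part of the higher non-coding share in the TPM values, and so in this ranking, was not tested.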
